A study of Mus musculus with 44 samples.

Results

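RNA levels of 41 genes of the DNA damage response and of DNA repair were followed through late spermatogenesis of the mouse. The genes were chosen by name, as a list, with earlier results of these data known. Every array probe annotated to them was taken. There were 91 such probes for 40 of the 41 genes, out of 45281 probes on each array, and Xrcc2 had no listed probe. Of the 40 genes, 34 had a probe above background on at least 5 of the 44 arrays and were tested among 12260 genes. The other 6, Chek1, Mdc1, Hus1b, Nbn, Xrcc4 and Xrcc5, had no probe above background on any array, so nothing is said of their level.

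The arrays were Illumina mouse BeadChips hybridised with total RNA of round spermatids, which are postmeiotic, and of spermatocytes, which are meiotic, from testes of adult mice. In experiment 1, mice labelled Th2b+/tag, heterozygous for an allele of the testis histone H2B (TH2B) whose product carries His, Flag and Ha tags at its C terminus, were compared with wild-type mice. In experiment 2, mice labelled th2bkd, which the submitters describe as making no TH2B, were compared with wild-type mice. The 8 groups were tag spermatids, wild-type spermatids, tag spermatocytes and wild-type spermatocytes of experiment 1 (6 arrays each), and kd spermatids, wild-type spermatids, kd spermatocytes and wild-type spermatocytes of experiment 2 (5 arrays each). The submitters call the replicates biological. The genotype field of the labels is headed with another gene name, brdt, so genotypes were taken from titles and the design text. The way in which the kd allele removes TH2B, the strain, the age in weeks and the way the cells were purified are not given in the sources used here.

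During meiosis the cell cuts its own DNA and repairs the breaks with the homologous chromosome as template. ATM, ATR and their partners sense the breaks, the RAD9-RAD1-HUS1 clamp is loaded at damaged DNA and helps to activate ATR, and the MRE11-RAD50-NBS1 complex trims the ends. BRCA2, PALB2, RAD54 and the BLM helicase act in strand exchange and in the processing of its intermediates. Round spermatids have a single set of chromosomes and no homologue to copy from. They later replace most histones by protamines, a step that is accompanied by DNA strand breaks, and end joining and single-strand break repair are the routes usually considered for these cells.

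Between 15997 and 19348 probes were above background on an array, and the number of arrays and the signal over background limit the precision. Values are log2 of the normalized intensity; a level of about 4.5 to 5 is close to background, and levels of different genes are not compared. Of 27 listed round spermatid markers 23 were tested, and 21 of these were higher in spermatids in each wild type. Their mean log2 level was 12.47 to 12.77 on tag spermatid and 12.69 to 12.90 on wild-type spermatid arrays of experiment 1, against 10.95 to 12.40 on tag spermatocyte and 10.87 to 12.59 on wild-type spermatocyte arrays. In experiment 2 it was 12.70 to 12.80 on kd spermatid and 12.64 to 12.72 on wild-type spermatid arrays, against 10.78 to 11.91 on kd spermatocyte and 10.63 to 11.11 on wild-type spermatocyte arrays. Thus 4 spermatocyte arrays, tag replicates 1 and 2 and wild-type replicate 1 of experiment 1 and kd replicate 1 of experiment 2, lay nearest to spermatids. The spermatocyte markers were mixed. Of 19 listed 14 were tested; 6 were lower and 3 higher in wild-type spermatids of experiment 1, and 5 lower and 3 higher in experiment 2. Spo11, the nuclease that makes the meiotic breaks, was lower (-1.10 and -1.26 on the log2 scale), and Rec8, a meiotic cohesin, was higher (1.77 and 2.51), as were Syce2 and Msh4. Their mean level did not overlap between stages in experiment 1 (8.49 to 8.74 in wild-type spermatids against 9.04 to 9.29 in wild-type spermatocytes) and overlapped in experiment 2 (9.16 to 9.30 against 9.23 to 9.53). The defining markers Sycp3 and Hormad1 were above background on 0 arrays. Steroid-producing Leydig cells are among the other cells of the testis. All 5 of their tested markers were lower in spermatids in both wild types, with a summed linear signal of 896 to 2179 in wild-type spermatids against 6875 to 15179 in wild-type spermatocytes of experiment 1, and 573 to 1811 against 7039 to 17559 in experiment 2. Macrophage and blood markers moved the other way, with 9 of 10 tested higher in wild-type spermatids of experiment 1 and 6 of 10 in those of experiment 2 (summed signal 747 to 1574 against 322 to 577, and 620 to 824 against 278 to 352). Ptprc, which marks white blood cells, was above background on 0 arrays. Of 9 tested Sertoli cell markers 1 was higher and 1 lower in experiment 1, and 1 higher in experiment 2. The part of these cells in the differences between stages was not tested. In RNA of bulk cells, fewer cells of a type and less RNA per cell cannot be told apart.

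Most of the repair genes were lower in round spermatids than in spermatocytes, and a few were higher. In wild types of experiment 1, 20 of the 34 tested genes fell and 6 rose, where 33.7% of all genes tested fell and 27.8% rose (limma, two-sided, Benjamini-Hochberg adjusted p under 0.05 over 12260 genes). In wild types of experiment 2, 19 fell and 6 rose, against 35.1% and 26.9% of all genes. The median difference of the 34 genes was -0.50 and -0.46 on the log2 scale in the 2 wild types, and that of all genes was -0.04 and -0.05. The same 19 genes fell in both wild types, which is 55.9% of the 34, and 29.8% of all genes did so. Trp53bp1, Rad51d, Rad52 and Polb rose in both, 11.8% of the 34 against 23.1% of all genes. All 4 of these rose, and 15 of the 19 fell, in each of the 4 genotype groups, against 20.0% and 25.4% of all genes. Because the list was chosen with earlier results of these data known, these shares describe it and do not test it.

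**Figure D1:**
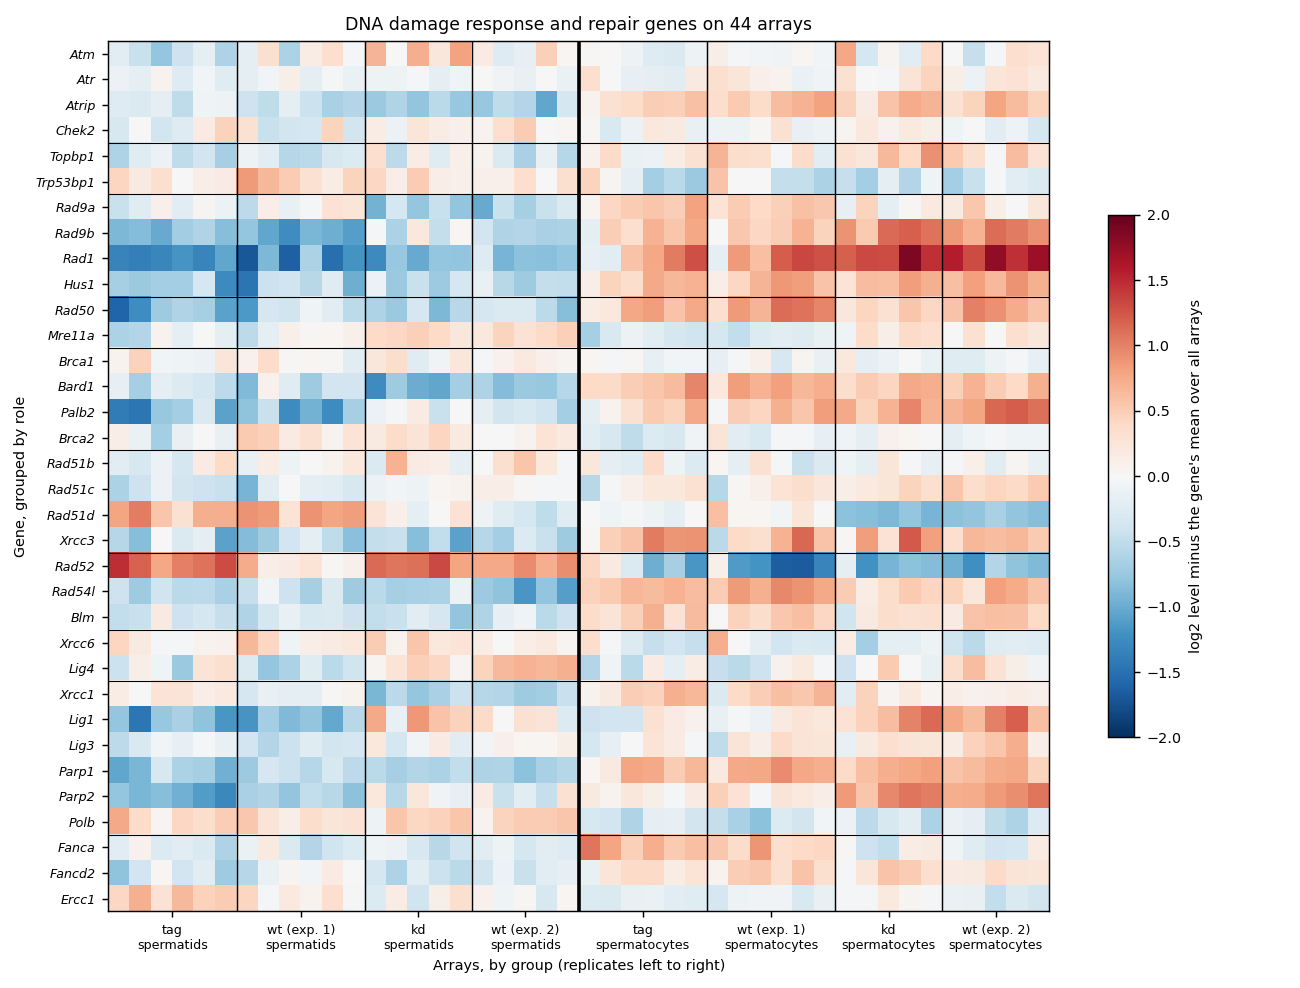
Log2 level of each of the 34 tested genes (rows, grouped by role) on each of the 44 arrays (columns), minus the gene's mean over all arrays. Spermatid arrays are left of the thick line and spermatocyte arrays right of it; red is above and blue below the gene's mean. Rows such as Rad1, Rad9b and Parp1 are blue on the left and red on the right, and Rad52 shows the opposite.

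All 4 tested genes of the clamp, which marks damaged DNA for checkpoint signalling, fell in both wild types, where 29.8% of all genes did. They were Rad9a, Rad9b, Rad1 and Hus1. Rad1, the gene of the clamp's RAD1 subunit (chr15:10486018-10499063, GRCm38.p6), changed most. In experiment 1 its lowest, median and highest levels were 4.47, 4.82 and 5.53 in wild-type spermatids, against 5.98, 7.20 and 7.51 in wild-type spermatocytes. In experiment 2 the levels were 5.24, 5.34, 5.34, 5.39 and 5.91 in wild-type spermatids, against 7.48, 7.63, 7.74, 7.89 and 7.94 in wild-type spermatocytes. The groups did not overlap in either experiment, and Rad1 was 4.31-fold lower in experiment 1 (log2 difference -2.11 ± 0.22 SE, adjusted p = 3.57e-11) and 4.90-fold lower in experiment 2 (-2.29 ± 0.24, adjusted p = 3.68e-11). Rad1 was above background on only 3 of 6 wild-type spermatid arrays of experiment 1, so its level there is partly that of background. The size depends on the processing: over the alternatives its difference ran from -2.32 to -0.86 in experiment 1 and from -2.62 to -1.13 in experiment 2.

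Rad9b, the germline-rich paralog of Rad9a (chr5:122323223-122354270), had lowest, median and highest levels of 6.69, 6.93 and 7.16 in wild-type spermatids and 7.95, 8.40 and 8.63 in wild-type spermatocytes of experiment 1. In experiment 2 it was at 7.29, 7.30, 7.33, 7.34 and 7.56 in wild-type spermatids and at 8.62, 8.79, 8.84, 8.97 and 9.06 in wild-type spermatocytes. Again no spermatid array reached a spermatocyte array, and the differences were -1.44 ± 0.14 (adjusted p = 7.85e-12) and -1.49 ± 0.15 (adjusted p = 2.63e-11). Hus1, the third clamp subunit, was at 5.93 ± 0.46 in wild-type spermatids against 7.19 ± 0.28 in wild-type spermatocytes of experiment 1 and at 6.13 ± 0.21 against 7.34 ± 0.12 in experiment 2, with no overlap in either. Rad9a fell by 0.47 and 0.79; its groups overlapped in experiment 1 and not in experiment 2.

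Among the damage kinases and their partners the picture was mixed. Atrip, the partner that brings ATR to single-stranded DNA, was at a mean of 6.69 ± 0.16 (SD, n = 6) in wild-type spermatids against 7.71 ± 0.18 in wild-type spermatocytes of experiment 1, and 6.51 ± 0.26 against 7.68 ± 0.19 (n = 5) in experiment 2. The groups did not overlap, and Atrip fell by 1.02 and 1.17 on the log2 scale. ATR itself could hardly be read: its probe was above background on 0 of 22 spermatid arrays and 6 of 22 spermatocyte arrays, and its difference passed the test only in kd mice (-0.30 ± 0.11, adjusted p = 0.0149). Atm, the kinase that answers double-strand breaks, had differences of 0.00 ± 0.17 and 0.03 ± 0.18 between wild-type stages, neither called. Chek2, a kinase downstream of ATM, was called in wild types of experiment 2 alone (0.35 ± 0.15, adjusted p = 0.0418), and the test of the 0.35 there against the -0.11 in experiment 1 did not pass (limma, adjusted p = 0.320).

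The mediators that pass the signal on moved in opposite ways. Topbp1, which activates ATR, was above background on 0 of 6 wild-type spermatid arrays and 5 of 6 wild-type spermatocyte arrays of experiment 1. It was at least 1.30-fold lower there (adjusted p = 0.000818), taking the lowest signal above background of each spermatid array as its limit. In experiment 2 it fell too (adjusted p = 0.000552), and no fold is given because it was above background on only 2 of 5 wild-type spermatid arrays. The other Topbp1 probe, annotated to a different transcript record, was above background on 0 arrays. Trp53bp1, the gene of 53BP1, which directs broken ends towards end joining, was higher in spermatids. Its mean was 10.40 ± 0.25 in wild-type spermatids against 9.75 ± 0.45 in wild-type spermatocytes of experiment 1 (0.65 ± 0.17 SE, adjusted p = 0.000877), with overlapping groups. In experiment 2 it was 10.08 ± 0.14 against 9.57 ± 0.24 (0.51 ± 0.19, adjusted p = 0.0164), with no overlap.

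In the complex that trims broken ends, Rad50 and Mre11a parted. Rad50, its long coiled-coil subunit (chr11:53649519-53707319), had lowest, median and highest levels of 6.09, 6.87 and 7.16 in wild-type spermatids against 7.57, 8.15 and 8.36 in wild-type spermatocytes of experiment 1. In experiment 2 its levels were 6.38, 6.72, 6.89, 6.95 and 6.95 against 7.80, 7.81, 7.97, 8.15 and 8.24. The stages did not overlap, and Rad50 fell by 1.29 (adjusted p = 5.21e-09) and 1.22 (adjusted p = 1.13e-07) on the log2 scale. Mre11a, the nuclease of the complex, had differences of 0.21 ± 0.12 and 0.19 ± 0.13, neither called. With the replicate number as a block, shared by all groups of an experiment, it was called in experiment 1.

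The genes of the BRCA complexes, which act in repair by homologous recombination, also divided. Bard1, the partner of BRCA1, fell by 1.08 and 1.27, and Palb2, the bridge between BRCA1 and BRCA2, fell by 1.39 and 1.37 on the log2 scale. Palb2 (chr7:122107262-122132980) was at 5.17 ± 0.33 in wild-type spermatids against 6.55 ± 0.30 in wild-type spermatocytes of experiment 1, and at 5.67 ± 0.18 against 7.05 ± 0.23 in experiment 2. Bard1 was at 6.14 ± 0.34 against 7.22 ± 0.23 and at 5.85 ± 0.12 against 7.12 ± 0.14 in the same order. The stages of Bard1 and Palb2 did not overlap in either experiment. Brca2, a tumour suppressor gene of the same route, was higher in wild-type spermatids of experiment 1 (0.39 ± 0.10, adjusted p = 0.00125) and not called in experiment 2 (0.20 ± 0.11, adjusted p = 0.122); the test between the experiments did not pass (adjusted p = 0.667). Brca1 was above background on only 6 of 44 arrays, with its other probe on 0, and was called in no stage comparison.

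Xrcc3, Rad51b, Rad51c and Rad51d also act in homologous recombination. Xrcc3 was at 4.95 ± 0.27 in wild-type spermatids against 5.96 ± 0.56 in wild-type spermatocytes of experiment 1, and at 5.00 ± 0.18 against 6.09 ± 0.14 in experiment 2; it fell by 1.01 and 1.09. It was above background on only 3 of 6 and 3 of 5 of these spermatid arrays, so their level is partly that of background. Rad51c fell by 0.38 and 0.40 on the log2 scale, whereas Rad51d rose by 0.61 ± 0.11 (adjusted p = 6.12e-06) and 0.49 ± 0.12 (adjusted p = 0.000497). Rad51d was at 6.78 ± 0.24 in wild-type spermatids against 6.16 ± 0.24 in wild-type spermatocytes of experiment 1, and at 5.73 ± 0.15 against 5.23 ± 0.07 in experiment 2. Its groups overlapped in experiment 1 and not in experiment 2. Rad51b was above background on 8 of 44 arrays and was not called.

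Rad52 stood apart from its neighbours in strand exchange. RAD52 anneals single DNA strands. The gene (chr6:119901722-119922827) had lowest, median and highest levels of 8.45, 8.58 and 9.18 in wild-type spermatids against 6.77, 7.17 and 8.53 in wild-type spermatocytes of experiment 1. In experiment 2 its levels were 9.15, 9.19, 9.19, 9.36 and 9.37 in wild-type spermatids against 7.20, 7.46, 7.54, 7.62 and 7.84 in wild-type spermatocytes. Only wild-type spermatocyte replicate 1 of experiment 1 reached the spermatid range, and in experiment 2 the stages did not overlap. Rad52 was 2.61-fold higher in spermatids in experiment 1 (1.39 ± 0.22, adjusted p = 5.92e-07) and 3.30-fold higher in experiment 2 (1.72 ± 0.24, adjusted p = 4.05e-08). In the same role group, Rad54l, a motor protein that moves along DNA during strand exchange, was at 6.88 ± 0.24 in wild-type spermatids against 8.10 ± 0.16 in wild-type spermatocytes of experiment 1 and at 6.39 ± 0.20 against 7.87 ± 0.23 in experiment 2. Blm, a helicase that unwinds joint molecules, fell by 0.75 and 0.82 on the log2 scale. Neither gene's stages overlapped in either wild type.

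The promoters of 2 genes that rose and 2 that fell are shown, since they move in opposite ways over the same step: each is the stretch from 250 bases before to 50 bases after the annotated start in RefSeq, GRCm38.p6, read in the direction of the gene. They are chr6:119902448-119902747 (plus strand) for Rad52, chr2:121271358-121271657 (minus) for Trp53bp1, chr5:122354156-122354455 (minus) for Rad9b and chr7:122132897-122133196 (minus) for Palb2. The stretches of Rad52 and Trp53bp1 lie wholly inside the annotated gene (chr6:119901722-119922827 and chr2:121194835-121296354). For these genes the start used is thus an internal one, and the outer end of the gene was not searched. Capitals mark a match to any of 4 motifs searched on both strands.
Rad52: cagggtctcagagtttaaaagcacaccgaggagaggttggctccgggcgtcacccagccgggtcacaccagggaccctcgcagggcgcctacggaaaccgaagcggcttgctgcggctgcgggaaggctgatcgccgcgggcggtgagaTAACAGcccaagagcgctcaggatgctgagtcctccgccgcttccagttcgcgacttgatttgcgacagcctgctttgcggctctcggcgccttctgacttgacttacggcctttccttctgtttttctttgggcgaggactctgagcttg
Trp53bp1: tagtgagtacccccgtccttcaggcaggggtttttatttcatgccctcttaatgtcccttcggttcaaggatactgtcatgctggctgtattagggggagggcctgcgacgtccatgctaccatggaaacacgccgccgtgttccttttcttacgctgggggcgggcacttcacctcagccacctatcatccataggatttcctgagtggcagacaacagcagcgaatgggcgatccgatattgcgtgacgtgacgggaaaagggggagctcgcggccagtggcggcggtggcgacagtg
Rad9b: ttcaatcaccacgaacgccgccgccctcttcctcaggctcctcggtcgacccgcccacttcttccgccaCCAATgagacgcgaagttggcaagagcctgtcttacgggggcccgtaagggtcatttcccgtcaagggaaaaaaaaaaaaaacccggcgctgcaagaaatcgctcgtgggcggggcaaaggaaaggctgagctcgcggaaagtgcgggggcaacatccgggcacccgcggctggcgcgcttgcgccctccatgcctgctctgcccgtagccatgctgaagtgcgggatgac
Palb2: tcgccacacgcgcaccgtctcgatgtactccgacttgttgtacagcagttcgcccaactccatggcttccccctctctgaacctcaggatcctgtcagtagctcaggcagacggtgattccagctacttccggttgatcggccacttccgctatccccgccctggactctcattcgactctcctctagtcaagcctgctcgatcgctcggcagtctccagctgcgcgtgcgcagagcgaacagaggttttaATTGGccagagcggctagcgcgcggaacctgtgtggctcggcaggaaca

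The motifs were an E2F-type TTTNNCGC, the cAMP response element TGACGTCA, the CCAAT box and a MYB-type TAACNG. The Rad52 stretch held the MYB-type letters at position -101 from the start used. Rad9b held the CCAAT box at -181, and Palb2 held it on the opposite strand at position 1. The Trp53bp1 stretch held none. RefSeq promoters were found for 34 of the 41 genes, 41 promoters in all. The E2F-type letters were in 9 of the 41, where 5.17% of 32851 promoters hold them, in 5 of 21 promoters of genes that fell, in 0 of 2 of genes that rose and in 4 of 18 of the other members. The response element was in 2 of 41 (1.79% of all promoters), the CCAAT box in 18 (37.4%) and the MYB-type letters in 7 (23.3%). These are matches of letters and were not tested.

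End joining seals breaks without a template. Xrcc6, the gene of the end-binding protein Ku70, had differences of 0.33 ± 0.15 in wild types of experiment 1 (not called) and 0.44 ± 0.16 in experiment 2 (adjusted p = 0.0197). Its dimmer probes, above background on 44 arrays, were higher in experiment 1 by 0.59 and 0.73 (limma over 22605 probes, adjusted p = 0.000623 and 3.89e-06). In experiment 2 they had 0.29 (adjusted p = 0.127) and 0.46 (adjusted p = 0.0044). Lig4, the ligase of this route, was called in no stage comparison (-0.28 ± 0.16 and 0.38 ± 0.18 in the 2 wild types). With the replicate block Xrcc6 was called higher in experiment 1 too (adjusted p = 0.00220), and Lig4 higher in experiment 2 (adjusted p = 0.0422).

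Of the 6 genes of single-strand break and base excision repair, 5 fell and 1 rose in each wild type. Of all genes, 33.7% fell and 27.8% rose in experiment 1, and 35.1% and 26.9% in experiment 2. Parp1, which senses nicks and marks them with poly(ADP-ribose), had lowest, median and highest levels of 9.61, 9.86 and 10.01 in wild-type spermatids against 10.53, 11.10 and 11.28 in wild-type spermatocytes of experiment 1. In experiment 2 its levels were 9.52, 9.69, 9.71, 9.73 and 9.76 against 10.77, 10.90, 10.96, 11.07 and 11.10. The stages did not overlap, and Parp1 fell by 1.18 (adjusted p = 6.22e-11) and 1.28 (adjusted p = 6.30e-11) on the log2 scale. Its relative Parp2 fell by 0.87 and 0.99, the ligase genes Lig1 by 0.92 and 0.70 and Lig3 by 0.52 and 0.35, and the scaffold gene Xrcc1 by 0.53 and 0.72. With the mean of its probes in place of the brightest, Lig3 was called in neither wild type. Polb, the polymerase that fills the gap in base excision repair, went the other way. It was at 9.16 ± 0.14 in wild-type spermatids against 8.42 ± 0.27 in wild-type spermatocytes of experiment 1 (0.74 ± 0.13, adjusted p = 2.15e-06), and at 9.27 ± 0.19 against 8.52 ± 0.21 in experiment 2 (0.76 ± 0.14, adjusted p = 7.05e-06). Its stages did not overlap in either experiment.

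Of the genes of crosslink and excision repair, Fancd2, which is placed on chromatin at crosslinks, fell by 0.47 and 0.51. Fanca, a subunit of the complex that modifies FANCD2, was called lower in wild-type spermatids of experiment 1 (-0.75 ± 0.13, adjusted p = 3.70e-06) and not in experiment 2 (-0.05 ± 0.14). It was above background on 1 of 6 wild-type spermatid and 6 of 6 wild-type spermatocyte arrays of experiment 1, but on 0 of 5 and 2 of 5 arrays of experiment 2. The test of the difference between the experiments gave 0.69 ± 0.19 with an adjusted p of 0.0535, and 0.0229 with the replicate block. Ercc1, a subunit of a nuclease that cuts DNA beside a lesion, rose by 0.33 ± 0.10 in experiment 1 (adjusted p = 0.00547). Its difference was 0.24 ± 0.11 in experiment 2 (not called). No member of the list passed the test of the difference between the experiments (3 at an unadjusted p under 0.05), where 1.67% of all genes did. The 1.67% is at the adjusted threshold. Counts at an unadjusted p, here and below, have no share of all genes beside them and are not read as an excess.

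**Figure D2:**
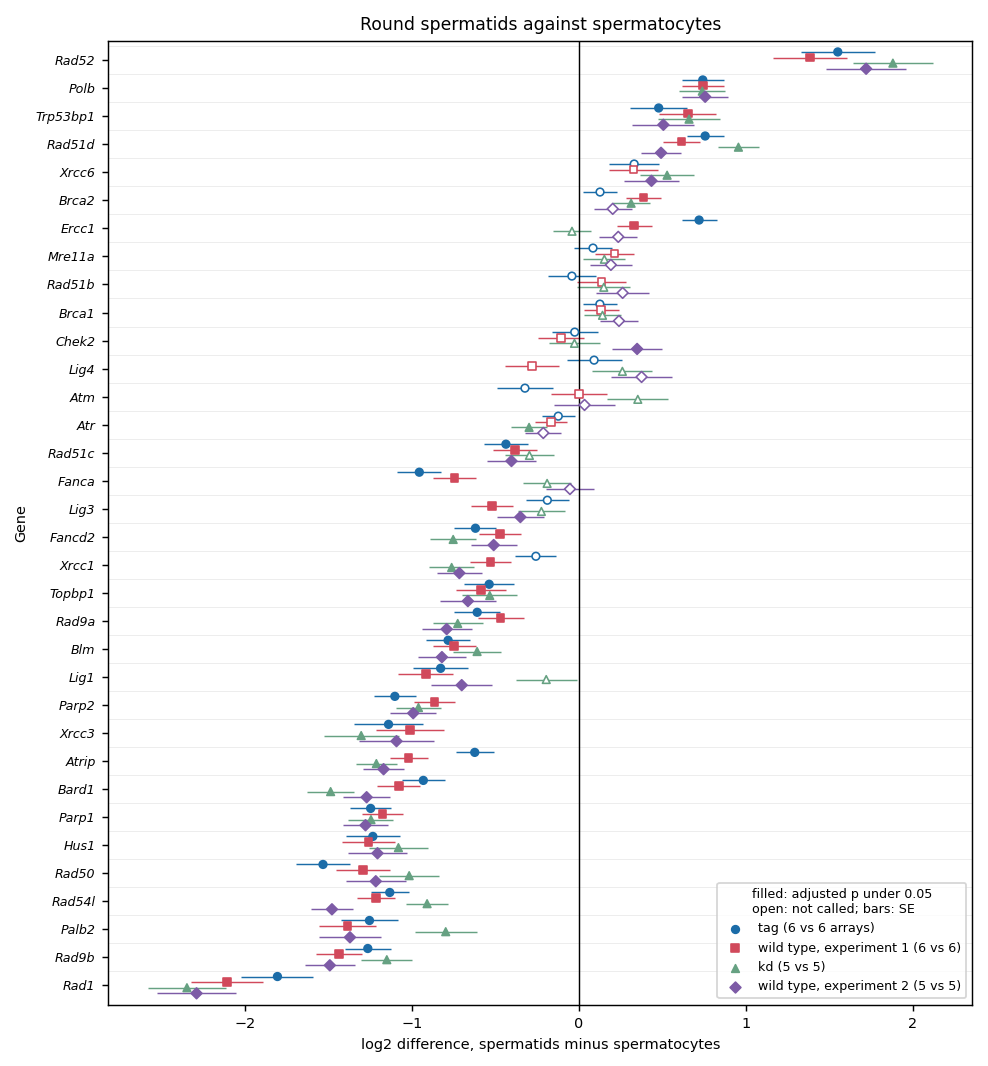
Log2 difference between spermatids and spermatocytes (horizontal axis) of each of the 34 genes (vertical axis, ordered by the mean of the 2 wild types), with SE bars, in tag, wild-type, kd and wild-type mice. Filled symbols passed the adjusted p threshold of 0.05. The 4 symbols of most genes lie on the same side of 0, from Rad1 near -2 to Rad52 at 1.39 to 1.88.

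Spermatids were also compared with spermatocytes within the mutants. In tag mice 18 of the 34 genes fell and 5 rose in spermatids, against 32.3% and 29.6% of all genes. In kd mice 17 fell and 6 rose, against 35.1% and 26.8% of all genes. Of the 19 genes that fell in both wild types, Rad51c, Xrcc1, Lig1 and Lig3 were each not called in tag or kd mice or both; Lig1, for example, had a difference of -0.20 ± 0.18 in kd mice. No gene of the list passed the test of whether the tag effect differs between stages (2 at an unadjusted p under 0.05), where 2.50% of all genes did, or whether the kd effect does (3 at an unadjusted p under 0.05), where 0.0489% of all genes did.

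Between tag and wild-type mice few of the genes were called, and Rad52 was called in both stages. In spermatocytes Rad52 rose and was the only one of the 34 genes called, where 5.39% of all genes were. The titles give only a replicate number. Numbers were taken to pair tag and wild-type arrays because same-numbered arrays deviated together, so levels are given by number, 1 to 6. In each stage 4 of the 6 tag arrays correlated best with the wild-type array of their own number, so the pairing is not certain. Rad52 was at 8.85, 8.61, 8.13, 7.45, 7.77 and 7.26 in tag spermatocytes, against 8.53, 7.30, 7.23, 6.78, 6.77 and 7.10 in wild-type spermatocytes. Each tag array was higher than the wild-type array of its number, although the groups overlapped. The difference was 0.73 ± 0.22 (1.66-fold, adjusted p = 0.0392), and with the replicate block the adjusted p was 0.00232. The mean level of the round spermatid markers on the same arrays was 12.40, 12.19, 11.74, 11.31, 11.52 and 10.95 in tag and 12.59, 11.82, 11.80, 11.18, 10.87 and 11.29 in wild-type spermatocytes. Rad52 and these markers were thus both high on replicates 1. With the marker level as a covariate the tag difference was 0.64 ± 0.11 (adjusted p = 3.24e-05). The call was lost when the fit held only the 2 groups (adjusted p = 0.480), and on leaving out any of 8 single arrays of the 12 (wild-type replicates 2 to 6 and tag replicates 1 to 3; adjusted p up to 0.202).

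In spermatids the groups were apart. The lowest, median and highest Rad52 levels were 9.20, 9.56 and 9.91 with the tag and 8.45, 8.58 and 9.18 in wild types. All 6 tag arrays were above all 6 wild-type arrays, and Rad52 was 1.86-fold higher (0.89 ± 0.22, adjusted p = 0.00249). It was called under each of the 26 alternatives run, with differences of 0.76 to 1.11.

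Besides Rad52, Ercc1 rose and Rad50 and Brca2 fell in tag spermatids. These 4 calls, 2 in each direction, compare with 16.2% of all genes called, 9.47% higher and 6.71% lower. Ercc1 (chr7:19344067-19356524) had lowest, median and highest levels of 8.78, 8.97 and 9.20 in tag and 8.46, 8.62 and 8.92 in wild-type spermatids, overlapping groups that differed by 0.34 ± 0.10 (adjusted p = 0.0173). Brca2 (chr5:150522297-150570147) was at 7.90, 8.43 and 8.71 in tag and 8.64, 8.86 and 9.09 in wild-type spermatids. Of the tag arrays only the highest reached the wild-type range, and Brca2 fell by 0.46 on the log2 scale (SE 0.10, adjusted p = 0.000944). Tag replicate 3, at 7.90, was the lowest; without it the difference was -0.36 ± 0.10 (adjusted p = 0.00670). With the round spermatid marker level as a covariate the Brca2 difference was -0.25 ± 0.10 and no longer called (adjusted p = 0.0564). Rad50 was at 5.63, 6.34 and 6.64 in tag and 6.09, 6.87 and 7.16 in wild-type spermatids, with overlap, and fell by 0.53 (SE 0.16, adjusted p = 0.0191). Its call was lost without tag replicate 1 (adjusted p = 0.0904), tag replicate 2 (0.0545) or wild-type replicate 4 (0.0664), and also with no background correction (-0.25 ± 0.09, 0.0544), median centring (0.0677), the 2 groups alone (0.0748) or experiment 1 alone (0.0690). That of Ercc1 was lost without tag replicate 2 (0.0550) or wild-type replicate 2 (0.0515) or 6 (0.0519), and with median centring (0.119). Peritubular and vascular markers were also higher in tag spermatids, 4 of 14 tested, with a summed signal of 2212 to 3041 in tag and 1073 to 1965 in wild-type spermatids. Their part in these differences was not tested.

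With the replicate number as a block, 9 of the 34 genes were called in tag spermatids, where 22.8% of all genes were. The block added Xrcc1, higher by 0.30 ± 0.10 (adjusted p = 0.0266), and Atm (-0.43 ± 0.14, adjusted p = 0.0189), Fancd2 (-0.32 ± 0.10, adjusted p = 0.0120), Parp2 (-0.33 ± 0.11, adjusted p = 0.0229) and Parp1 (-0.27 ± 0.10, adjusted p = 0.0412), all lower. Without the block these 5 had adjusted p-values of 0.0626 to 0.133. None of the 4 genes called in tag spermatids passed the test of whether the tag effect differs between spermatids and spermatocytes: the differences between the effects were 0.17 ± 0.31 for Rad52, 0.39 ± 0.15 for Ercc1, -0.26 ± 0.15 for Brca2 and -0.24 ± 0.23 for Rad50, with adjusted p-values of 0.249 to 0.951.

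**Figure D3:**
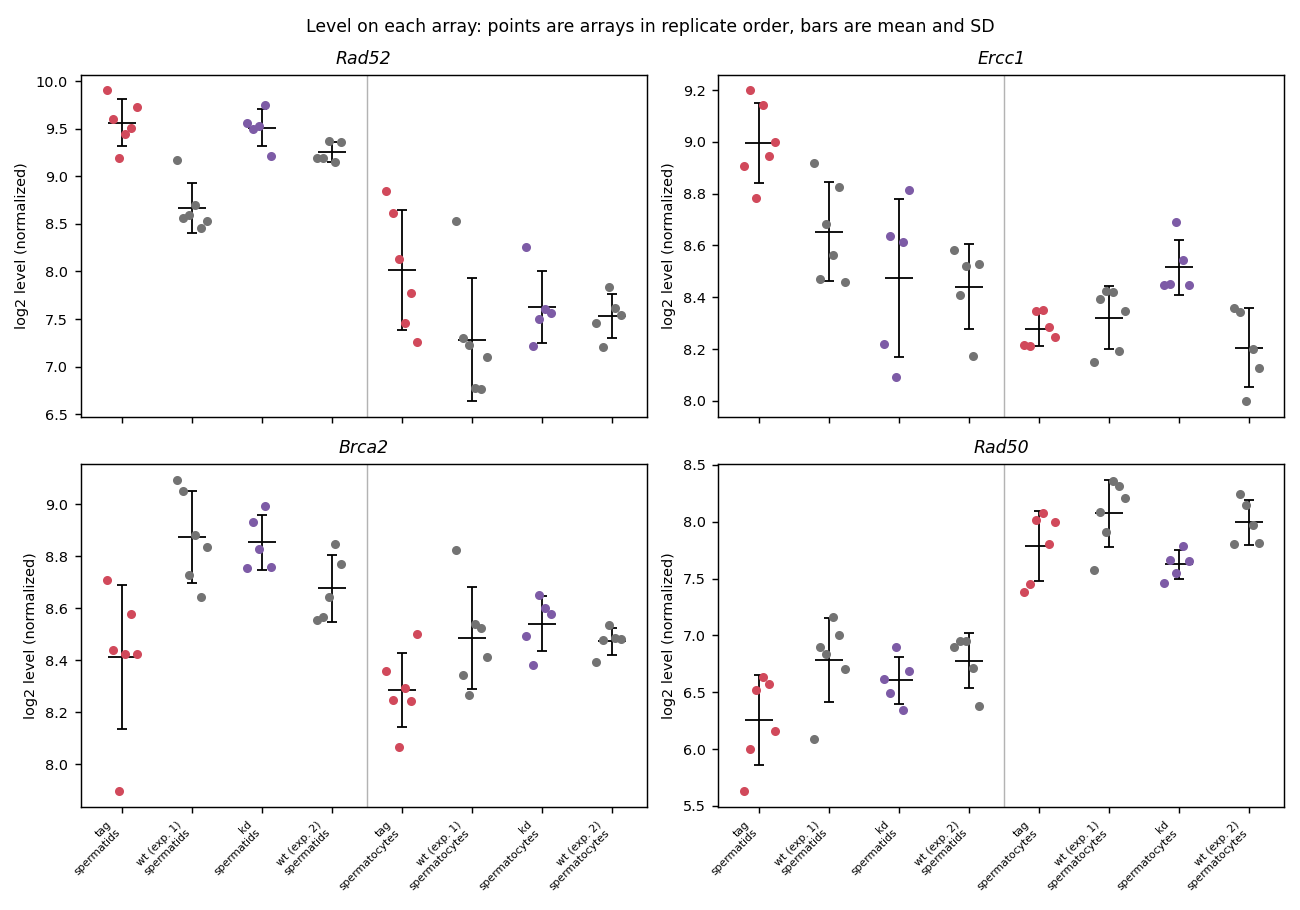
Log2 level (vertical axis) of Rad52, Ercc1, Brca2 and Rad50 on each array (points, in replicate order), with mean and SD bars, in the 8 groups; spermatids are left of the line. Rad52 and Ercc1 are higher, and Brca2 and Rad50 lower, in tag than in wild-type spermatids; the 6 tag and 6 wild-type arrays do not overlap for Rad52 alone.

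No gene of the list was called between kd and wild-type mice. In spermatids 0 of 34 passed, against 1.89% of all genes, and 5 had an unadjusted p under 0.05. In spermatocytes 0 passed, against 1.56% of all genes, and 3 had an unadjusted p under 0.05. The shares of all genes are at the adjusted threshold, so the 5 and the 3 cannot be set against them. Differences ranged between -0.38 and 0.43 in spermatids and between -0.37 and 0.31 in spermatocytes. The genes nearest to a call in spermatids were Rad54l and Rad51d. Rad54l was at 6.64, 6.66, 6.68, 6.77 and 7.20 in kd and 6.14, 6.20, 6.50, 6.53 and 6.58 in wild-type spermatids, with no overlap (0.40 ± 0.12, adjusted p = 0.0890). Rad51d was at 5.83, 6.03, 6.12, 6.28 and 6.31 in kd and 5.51, 5.66, 5.77, 5.78 and 5.91 in wild-type spermatids, with overlap (0.39 ± 0.12, adjusted p = 0.0979). Rad52, which was higher with the tag, was at 9.21, 9.50, 9.53, 9.57 and 9.75 in kd and 9.15, 9.19, 9.19, 9.36 and 9.37 in wild-type spermatids (0.26 ± 0.24, adjusted p = 0.825). In kd spermatocytes 6 of 14 tested peritubular and vascular markers were higher, with a summed signal of 2801 to 11405 in kd and 920.1 to 2339 in wild-type spermatocytes.

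**Figure D4:**
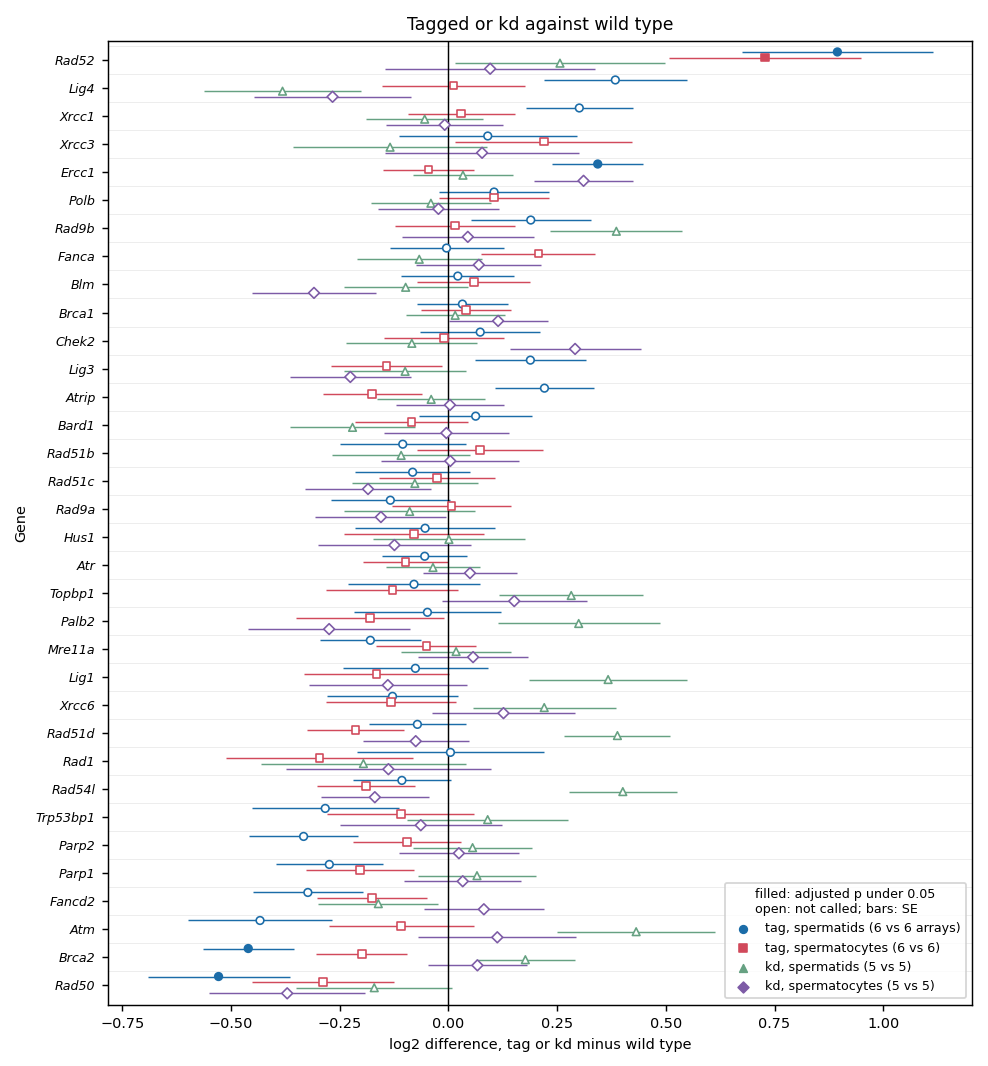
Log2 difference between tag and wild-type, or kd and wild-type, arrays (horizontal axis) of the 34 genes (vertical axis), with SE bars, in spermatids and spermatocytes. Filled symbols passed the adjusted p threshold of 0.05: Rad52 in both stages and Ercc1, Brca2 and Rad50 in spermatids, all with the tag.

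For 15 genes 2 or more probes were above background, 45 probes in all, and most genes gave the same direction with each. Parp1, Parp2, Hus1, Blm and Fancd2 fell with every such probe in both wild types, by 0.41 to 1.38 on the log2 scale. Others did not. A dimmer probe of Lig3 was higher in spermatids (0.42 and 1.01; limma over 22605 probes, adjusted p = 0.00612 and 7.20e-08), against -0.52 and -0.35 for the probe that represents the gene. For Mre11a a dim probe fell by 0.65 and 0.67, where the brightest had 0.21 and 0.19. For Brca2 a dim probe, above background on 19 arrays, fell by 0.58 and 0.60, while the 2 bright probes gave 0.39 and 0.20 and 0.54 and 0.34. Both bright Brca2 probes were lower in tag spermatids (-0.46 and -0.45). Whether such probes read different transcripts was not tested. Rad51d, Rad9a and Lig1 each had a dim probe that changed sign between the wild types (-0.16 and 0.34, 0.12 and -0.18, and -0.06 and 0.11). When a gene's probes were averaged, Lig3 was called in neither wild type. In experiment 1 that setting also lost Rad9a, Rad51c and Brca2 and added Xrcc6. Rad52, Ercc1 and Rad50 rest on 1 usable probe each.

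**Figure D5:**
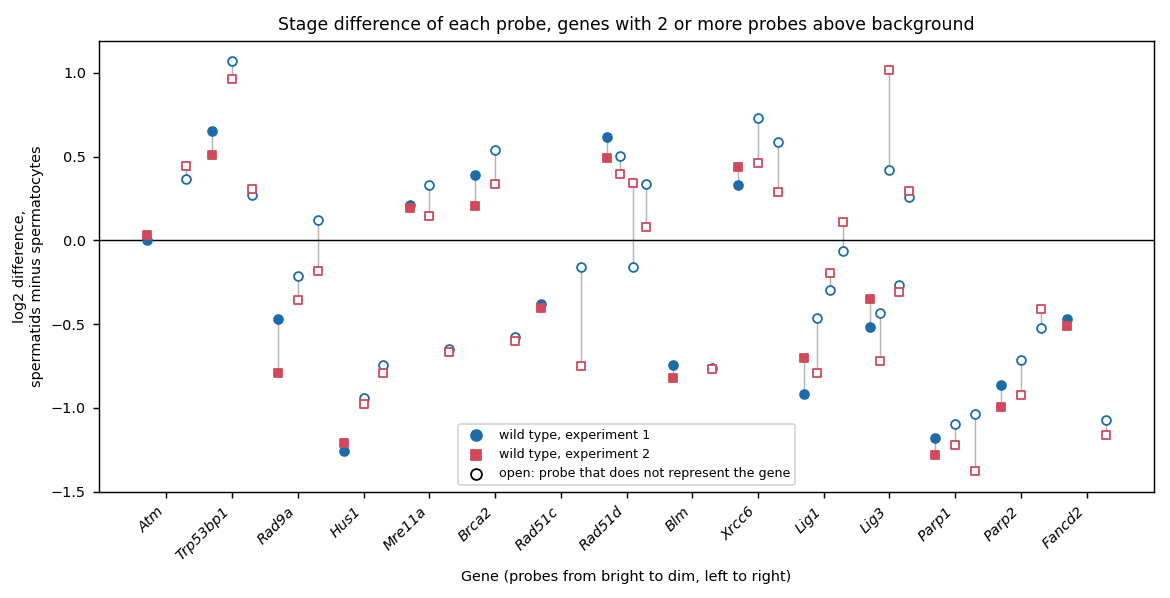
Log2 difference between spermatids and spermatocytes (vertical axis) of every probe above background for the 15 genes with 2 or more such probes (horizontal axis, probes from bright to dim), in wild types of experiment 1 (circles) and 2 (squares). Filled symbols are the probe that represents the gene; probes of Lig3, Mre11a and Brca2 lie on both sides of 0.

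A wider list of 115 other repair genes, of which 84 were tested, was also described. It too was chosen with earlier results of these data known. In wild-type spermatids 40 fell and 20 rose in experiment 1, and 40 fell and 25 rose in experiment 2 (median -0.19 and -0.33). That is 47.6% lower and 23.8% higher in experiment 1, against 33.7% and 27.8% of all genes, and 47.6% and 29.8% in experiment 2, against 35.1% and 26.9%. Lowest were Mlh3, a mismatch repair relative needed for crossovers (-2.42 and -2.58), Polh, a polymerase that copies past damaged bases (-2.18 and -2.02), and Fancg of the Fanconi complex (-1.85 and -1.81). Highest were Ercc2, a helicase of nucleotide excision repair (2.17 and 2.76), Cdc25c, a phosphatase that drives entry into division (1.65 and 2.11), and Tipin, a replication fork protector (1.51 and 2.01). In tag spermatocytes 2 rose and 1 fell, where 5.39% of all genes were called. Rad17, which loads the clamp, was at 9.93 ± 0.34 in tag against 9.39 ± 0.09 in wild-type spermatocytes (0.54 ± 0.12, adjusted p = 0.00311). Ercc5, a nuclease of excision repair, rose by 0.72 and Ercc2 fell by 1.04.

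In tag spermatids 4 of the 84 rose and 4 fell, 4.76% each way, against 9.47% and 6.71% of all genes. Among them were 3 of the 13 tested genes of base excision and single-strand break repair outside the members, all 3 higher, where 9.47% of all genes rose. The member genes of that role were not called there and went both ways, from -0.33 for Parp2 to 0.30 for Xrcc1. Whether the role as a whole differs was not tested. Aptx, which clears blocked ends at nicks, was at 7.24 ± 0.36 in tag against 6.05 ± 0.16 in wild-type spermatids (1.18 ± 0.17, adjusted p = 5.58e-07). Ogg1, which removes oxidised guanine, was at 6.95 ± 0.27 against 5.96 ± 0.23 (0.99 ± 0.18, adjusted p = 3.68e-05). Tdp1, which frees ends from trapped topoisomerase, was at 6.46 ± 0.32 against 5.47 ± 0.30 (0.99 ± 0.16, adjusted p = 4.78e-06). The 2 groups did not overlap for these 3 genes. Ercc5 rose by 0.78, Ercc2 fell by 1.43 and Rnf168, which places ubiquitin on histones at breaks, fell by 0.58. None of the 84 was called between kd and wild-type mice in either stage (7 at an unadjusted p under 0.05 in spermatids and 10 in spermatocytes).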

How the data were processed

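The authors deposited, per the file headers, raw bead intensity and a detection p-value for each probe and array; the series' value table holds intensity that the authors had quantile normalized, as its values show. No source used here names the authors' software. The raw intensity was processed with limma 3.58.1 in R 4.3.3: normexp background correction on detection p, offset 16, quantile normalization and log2. Probes with detection p under 0.05 on at least 5 arrays were kept (22605, of which 18813 had a gene name), and each of 12260 genes was represented by its brightest kept probe. Of 45281 probes, 34885 had 1 gene name, 18 several and 10378 none. No column of the files was unused for want of a sample. Array medians of raw intensity ran from 91.4 to 119.

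Linear models (lmFit, eBayes) over the 44 arrays had 1 mean for each of the 8 groups; tests were two-sided and Benjamini-Hochberg adjusted over all genes. Alternatives changed the background correction, scaling, probe filter, probe summary, arrays included, weights, replicate block and marker covariate. The replicate block gave each replicate number of an experiment a term shared by all groups of that experiment. It thus also tied same-numbered arrays that were not taken as pairs. Values after ± are SE for differences and SD for levels. Folds are on the normalized scale. The members and lists were chosen with earlier results of these data known. Named genes were all members called for a genotype, the stage calls shared by both wild types with the largest change, at least 1 per role group, and members whose probes disagree. The code was tested on simulated data. Where same-numbered arrays deviated together in every pair (correlation over genes above 0.1), numbers were taken to pair arrays: tag with wild type in spermatocytes (0.23 to 0.86) and spermatids (0.16 to 0.42), and the stages of both wild types (0.13 to 0.57 and 0.19 to 0.35). RefSeq promoters are of build GRCm38.p6.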

Additional observations from a re-analysis of the deposited data

Results flagged for a closer look

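In 21 of 272 combinations of a gene and a group, the highest or lowest array lay far from the others of its group by Dixon's criterion, 9 on the high and 12 on the low side; chance flags about 1 in 20 groups. No cause was tested.

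Wild-type spermatocyte replicate 1 of experiment 1, which also had the highest round spermatid marker level of its group (12.59), was the array concerned for 7 genes. It was high for Rad52 (8.53) and Xrcc6 (10.13) and low for Bard1 (6.78), Rad51c (8.45), Xrcc1 (9.51), Lig3 (9.88) and Parp1 (10.53). In the same group, replicate 4 was high for Chek2 (5.25) and replicate 3 for Fanca (5.88).

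Among spermatids of experiment 1, tag replicate 3 was low for Brca2 (7.90) and high for Blm (9.65). Wild-type replicate 1 was low for Rad51c (8.09) and high for Rad52 (9.18), and wild-type replicate 3 was low for Rad51d (6.29). In experiment 2, kd spermatid replicate 5 was high for Rad54l (7.20), kd spermatid replicate 1 was low for Polb (8.76) and kd spermatocyte replicate 1 was low for Blm (9.08). Wild-type spermatid replicate 1 of experiment 2 was high for Rad9b (7.56) and Rad1 (5.91) and low for Polb (8.94) and Lig4 (6.18).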

How the results depend on the processing

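Over the 102 called differences, 2394 of 2456 alternative values kept direction and call, 60 kept direction without the call and 2 reversed. Omissions of 1 array made up 1100 of the kept calls. One test per probe reused the same probes and kept all 102, so the total is not a measure of independent settings. Median centring kept 91 of the 102 calls and the mean of a gene's probes 95. Both reversals came with median centring, which moves the median of all genes to between -0.12 and -0.19 in the stage comparisons: Ercc1 had -0.03 in wild types of experiment 1 and Brca2 -0.05 in kd mice. Sizes moved as well. In wild types of experiment 1, for example, the alternatives ran from -1.6 to -0.52 for Palb2 and from -1.21 to -0.34 for Xrcc3. The cause of other changes was not tested.

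In tag spermatocytes 0 genes were called with no background correction, the authors' processed values, median centring, cyclic loess, no filter, the 2 groups alone or experiment 1 alone, and 0 to 1 on leaving out single arrays. In tag spermatids 2 were called with median centring and 9 with array weights. With the replicate block 9 were called, where 22.8% of all genes were. Without the 4 spermatocyte arrays nearest to spermatids 8 were called, and 8 with the round spermatid marker level as a covariate. These last settings were both chosen with earlier results of these data known. Without single arrays 2 to 6 were called, 2 being the count without tag replicate 2, and all-gene counts ran from 1736 to 2065. Member counts in this section that have no all-gene share beside them are not results about the repair genes in particular. In kd spermatids 1 was called with experiment 2 alone, 3 with array weights, 1 with the block and 1 with the covariate, and 0 without single arrays. For the difference between wild types 1 was called with the mean of probes, 2 with array weights and 1 with the block, and 0 to 1 without single arrays. Without single arrays the stage counts were 26 to 27 and 23 to 26 in wild types, 22 to 25 in tag and 22 to 24 in kd mice.

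In wild types of experiment 1 the block also called Mre11a and Xrcc6, and in those of experiment 2 Lig4. The block was shared by all groups of an experiment, so in experiment 2 it also tied kd arrays to wild-type arrays. In kd spermatids (pairs over 0.1 in 1 of 5) and spermatocytes (3 of 5) the arrays share only a number; there the block gave 1 and 0 genes. All-gene counts moved most for tag spermatocytes, 661 against 171 with the groups alone and 1236 with the covariate, and for kd mice, 232 against 749 in spermatids with array weights and 191 against 524 in spermatocytes with the block. Signal near background limits Atr, Topbp1, Brca1, Rad51b, Chek2, Fanca, Rad1, Xrcc3 and Palb2.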

Other observations

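In the wider repair list 4 genes had a stage difference that itself differed between the wild types of the experiments, all falling further in experiment 2 (limma, adjusted over all genes). Fancc, a subunit of the Fanconi complex, had a difference of -0.91 ± 0.12 in experiment 2 and -0.16 ± 0.11 in experiment 1 (adjusted p of the difference 0.00888). Rev1, which organises synthesis past damaged bases, had -1.03 ± 0.14 and -0.19 ± 0.13 (0.0132). Rad51ap1, which acts in homologous recombination, had -1.11 ± 0.12 and -0.50 ± 0.11 (0.0417). Babam1, a subunit of a BRCA1 complex, had -0.52 ± 0.11 and 0.02 ± 0.10 (0.0414). The round spermatid marker level of the spermatocyte arrays also differed, at 10.63 to 11.11 in experiment 2 and 10.87 to 12.59 in experiment 1, and its part in these values was not tested.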
